A study of Astyanax mexicanus with 6 samples.

Results

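The broad shared regions are stretches of liver open chromatin that were long and were present in the surface form and both cave forms of Astyanax mexicanus, the Mexican tetra. Overlapping or touching peaks of the 3 peak lists, 1 per form, were merged into union regions. A region belonged to the set if it lay on one of the 25 numbered chromosomes, held a peak of all 3 lists and was at least 2000 bp long from its outermost start to its outermost end. There were 1694 such regions among 110214 union regions in all (1.54%). They were 5.19% of the 32629 chromosomal regions held by all 3 lists (Wilson 95% interval 4.96 to 5.44, counting error only). Length and presence in all 3 lists chose the members, so both are given below as a description, with no test.

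The assay was ATAC-seq, which uses a transposase to tag DNA that is not packed into nucleosomes. The groups were Surface, Pachon cave and Tinaja cave fish, with 2 liver samples each. Nuclei from homogenised liver, about 70000 per reaction, were tagmented for 22 to 24 min in every group. The labels name the form and the tissue and state no age, sex, rearing or number of fish per sample. Each form had 1 peak list, recorded under its replicate 1, and whether a list drew on 1 or both samples is not given in the sources used here. The lists thus carry no spread between replicates, and every difference between forms below is a difference between 3 lists. No read counts come with the peaks, so the depth behind a peak is unknown. Peaks hold no expression values, so the liver label could not be checked against marker genes.

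As background, most open regions in a genome are short and sit at promoters or single enhancers, where transcription factors displace a nucleosome or a few. Longer open stretches are known from CpG-rich promoters, from clusters of enhancers near genes that define a cell type, and from tandem gene or repeat arrays. How wide a peak is called also depends on sequencing depth and on the peak caller. Which of these features the regions hold was not analysed here, since no genome or annotation of the lists' own build was used.

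The longest regions show what the set contains. Some held 1 unbroken peak in every list, and some held 1 peak in 1 list and several in another. The longest, on chromosome 25 at positions 26629846 to 26654902, measured 25057 bp. Its peaks covered 23729 bp in Surface (2 peaks), 22605 bp in Tinaja (3 peaks) and 22010 bp in Pachon (5 peaks). The forms were close in covered length there and differed in the number of pieces.

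The clearest unbroken block lay on chromosome 3 at positions 53623174 to 53639375, 16202 bp long. A single peak covered 16132 bp in Surface, 15970 bp in Tinaja and 16020 bp in Pachon, and 15900 bp were covered in all 3. On chromosome 23, positions 8936797 to 8951525, single peaks of 14365 bp in Surface, 14729 bp in Tinaja and 14386 bp in Pachon made a region of 14729 bp. These 2 regions held the longest uninterrupted stretches common to the 3 lists, the second of 14365 bp. The next, of 10808 bp, lay in the longest region of chromosome 25. On chromosome 25 at positions 42410020 to 42418570 a smaller block had the same shape, with 8461 bp covered in Surface, 8407 bp in Tinaja and 8427 bp in Pachon.

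Other long regions were continuous only in Surface among the 3 lists. On chromosome 22, positions 10379408 to 10393810, Surface had 1 peak of 14403 bp, Pachon 3 peaks that covered 9829 bp and Tinaja 2 peaks that covered 11757 bp. On chromosome 17, positions 27194695 to 27206178, Surface had 1 peak of 11484 bp, Pachon 5 peaks over 9211 bp and Tinaja 4 peaks over 3749 bp. Tinaja thus covered 32.6% of that region and Surface all of it. The next region on that chromosome, positions 27206739 to 27218931, also held a single Surface peak, of 12193 bp, against 9209 bp in Tinaja and 10225 bp in Pachon, each in 2 peaks. All 3 lists overlapped there over 8615 bp without a break.

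In the 2 shortest of the 10 longest regions, only Tinaja had a single peak, though on chromosome 9 Surface had a long one of 7624 bp. On chromosome 10, positions 30929461 to 30939224, Tinaja covered 9690 bp in 1 peak, Surface 6463 bp in 4 and Pachon 4427 bp in 2. On chromosome 9, positions 31855800 to 31864820, Tinaja covered 9021 bp in 1 peak and Surface 7916 bp in 2, whereas Pachon had 4 short peaks over 1505 bp, or 16.7% of the region. Long extent in the union therefore did not mean long extent in every form. The remaining pair of the 10, both on chromosome 3, were near complete in all forms. The region from 6951438 to 6966569 was covered over 14823 bp in Surface, 14002 bp in Tinaja and 14325 bp in Pachon (4 peaks). The region from 53654646 to 53666347 was covered over 11300 bp in Surface, 11702 bp in Tinaja and 10598 bp in Pachon.

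**Figure D1:**
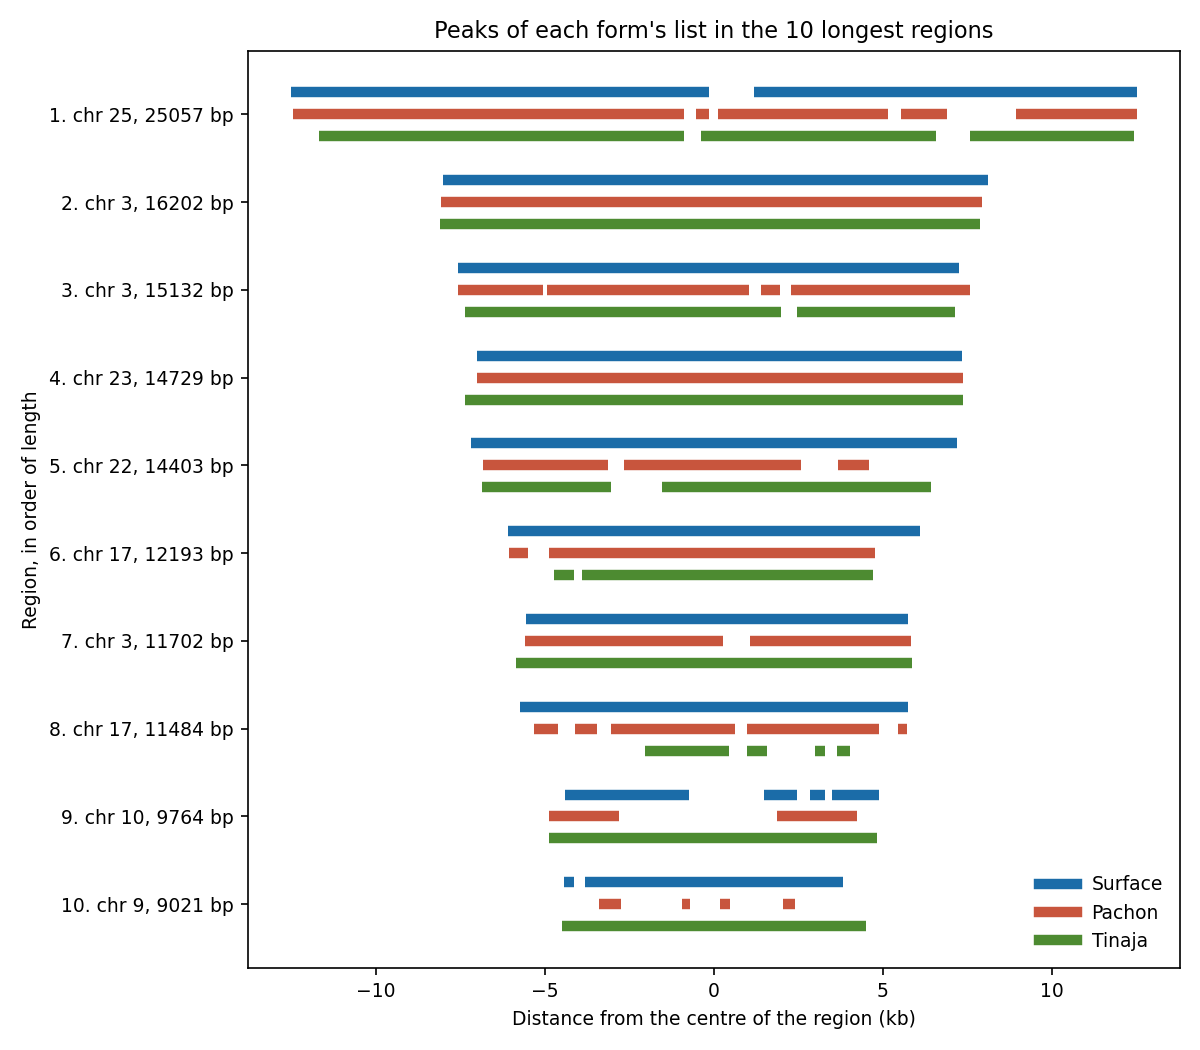
Peaks of the Surface, Pachon and Tinaja lists (coloured bars) in the 10 longest regions, one region per row group, drawn as distance in kb from the centre of the region. The regions ranked 2 and 4 are single blocks in all 3 lists, whereas in the region ranked 10 Pachon covers 1505 bp of 9021 bp.

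Most members were far shorter than these. The median length was 2426 bp (binomial 95% interval of the median 2401 to 2461), with quartiles of 2180 and 2966 bp. Of the 1694 regions, 938 (55.4%) were under 2500 bp, 405 (23.9%) reached 3000 bp, 68 (4.01%) reached 5000 bp and 8 (0.472%) reached 10000 bp. Together they spanned 4.75 Mb, or 15.4% of the length of all chromosomal regions held by the 3 lists. From its maximum at 600 to 700 bp, the number of regions per 100 bp of length fell through the threshold, which therefore cuts through a continuous distribution. The 3 regions just inside it measured 2000, 2000 and 2001 bp, and the 3 just outside it 1998, 1997 and 1997 bp.

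**Figure D2:**
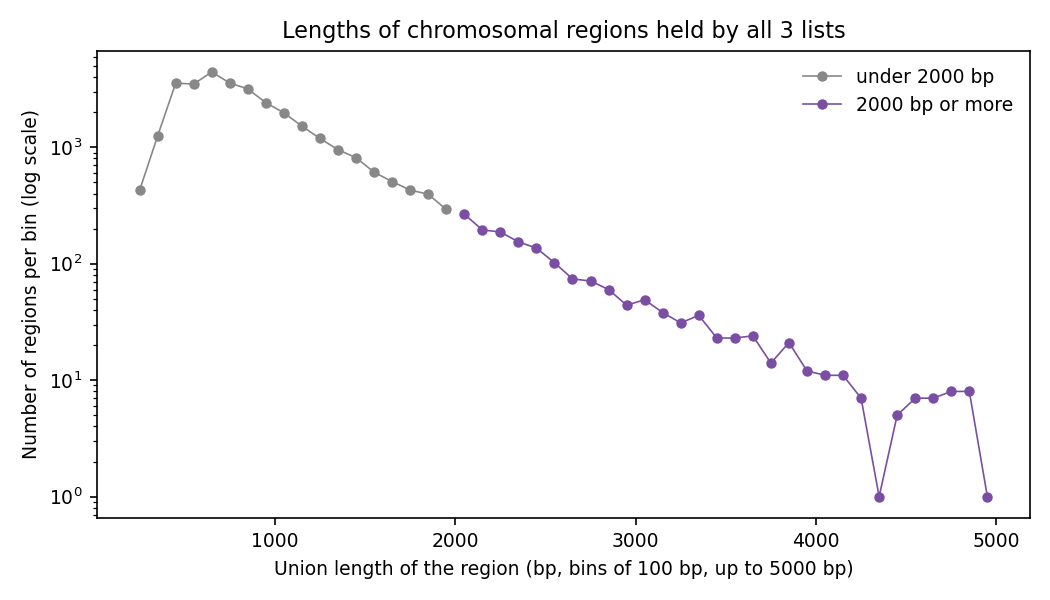
Number of chromosomal regions held by all 3 lists (vertical axis, log scale) by union length in bins of 100 bp up to 5000 bp; purple points are the broad regions and grey points the shorter ones. The numbers are highest, at 4424, in the bin from 600 to 700 bp and decline from there through 2000 bp. The 68 regions of at least 5000 bp are not drawn.

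Most long regions were held by every list. Of 1960 chromosomal regions of at least 2000 bp, 1694 were held by all 3 lists (86.4%, Wilson 95% interval 84.8 to 87.9), 209 by 2 lists and 57 by 1. The share held by all 3 was 79.2% for regions of 1000 to under 2000 bp, 60.6% for 500 to under 1000 bp and 15.2% under 500 bp. A union of 3 peaks is longer than its parts, so some of this rise with length follows from merging. Of the long regions held by 2 lists, 107 lacked Surface, 51 lacked Pachon and 51 lacked Tinaja. Of those held by 1 list, 21 were in Surface, 6 in Pachon and 30 in Tinaja.

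The broad regions took up a small number of peaks and a larger part of the open length in each list. In Surface, 1948 of 50924 chromosomal peaks lay in them (3.83%), with 11.4% of the base pairs under chromosomal peaks. In Pachon it was 2161 of 50115 peaks (4.31%) with 11.8% of the base pairs, and in Tinaja 2090 of 58238 peaks (3.59%) with 10.7%. The 3 lists were thus alike in how much of their open length lay in these regions. Single peaks of at least 2000 bp were mostly found here: 1048 of 1136 in Surface, 820 of 901 in Pachon and 974 of 1106 in Tinaja. By the rule, such a peak lies outside the set only if another list has no peak in its region.

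In a minority of the regions, every list reached 2000 bp with a single peak. In 496 regions (29.3%, Wilson 95% interval 27.2 to 31.5) each list had a peak of at least 2000 bp. In 341 (20.1%) 2 lists had one, in 654 (38.6%) only 1 list had one, and in 203 (12.0%) no single peak reached 2000 bp and the length came from joining shorter ones. Among the 654, the long peak was in Surface in 356 regions, in Tinaja in 207 and in Pachon in 91. Both caves and not Surface had such a peak in 146 regions, against 120 for Surface and Tinaja and 75 for Surface and Pachon. By the rule, any shared chromosomal region with such a peak is a member, so no share outside the set can stand beside these counts. The lists also held unequal numbers of such peaks on chromosomes, 1136 in Surface, 1106 in Tinaja and 901 in Pachon. No pattern of the forms is read from these counts. A continuous stretch of at least 2000 bp under peaks of all 3 lists was present in 468 regions (27.6%), and one of at least 1000 bp in 1129 (66.6%). The median of the longest such stretch was 1452 bp (interval 1375 to 1513).

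The part of a region covered by peaks of all 3 lists had a slightly lower median than over all shared regions. Its lower quartile lay further below. The median percentage of a broad region covered by peaks of all 3 lists was 65.4% (interval 63.7 to 66.8, quartiles 43.2% and 84.2%). Over all 32629 shared chromosomal regions it was 67.9% (quartiles 51.0% and 83.0%). Summed over the set, 62.7% of the length was covered by 3 lists, 20.2% by 2 and 17.1% by 1. Over all shared regions these were 64.6%, 17.7% and 17.8%. Coverage by Surface alone made up 8.73% (9.68% over all shared regions), by Tinaja alone 5.58% (5.04%) and by Pachon alone 2.74% (3.04%). Length covered by both caves and not by Surface made up 8.65%, against 7.14% lacking only Pachon and 4.42% lacking only Tinaja. Over all shared regions these were 6.81%, 6.84% and 4.02%, and the differences were not tested. At the extremes, 271 regions (16.0%, beside 13.4% of all shared regions) were covered by all 3 lists over at least 90% of their length. In 10 regions (0.590%, beside 0.408%) the lists had no base pair common to all.

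Broad regions were often built from several peaks of a list. Exactly 1 peak of each list was present in 1010 regions (59.6%, Wilson 95% interval 57.3 to 61.9), beside 93.7% of all shared chromosomal regions and 85.8% of those of 1000 to under 2000 bp. A region joined from more peaks is longer, so this contrast is in part given by the rule. Surface had more than 1 peak in 234 regions (13.8%), Pachon in 422 (24.9%) and Tinaja in 365 (21.5%). Over all shared regions the shares were 2.28%, 3.30% and 2.86%, in the same order of lists. The highest number of peaks of 1 list in a region was 5, in Pachon.

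The split lists coincided in some regions. Pachon and Tinaja were both split, with a single Surface peak, in 189 regions (11.2%). Surface was split together with Pachon alone in 54 and with Tinaja alone in 28. In 33 regions all 3 lists were split. Pachon was the only split list in 146 regions, Surface in 119 and Tinaja in 115. These patterns were not counted over all shared regions, so they are not read as particular to broad regions. Surface was the list least often split there too, in 2.28% against 3.30% for Pachon and 2.86% for Tinaja. The gaps were short in all lists, with a median of 348 bp in Surface (254 gaps), 467 bp in Pachon (467 gaps) and 430.5 bp in Tinaja (396 gaps).

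A gap inside a region had to be bridged by peaks of the other lists, since merging would otherwise have ended the region there. That most gaps were covered whole by another list is thus largely given by the rule. Which list did so differed. The exceptions were 4 gaps of Surface, 5 of Pachon and 4 of Tinaja, which neither other list covered completely. Of the Surface gaps, 117 (46.1%) were spanned whole by peaks of both caves, 88 by Tinaja alone and 45 by Pachon alone. Of the Pachon gaps, 110 (23.6%) were spanned by both other lists, 246 by Surface alone and 106 by Tinaja alone. Of the Tinaja gaps, 83 (21.0%) were spanned by both others, 258 by Surface alone and 51 by Pachon alone. Both caves together were thus the largest of these classes for Surface gaps, but 133 Surface gaps (52.4%) were spanned by a single cave only. For the gaps of either cave, the largest class was Surface alone. No test of this difference was made. Gaps were not counted over all shared regions, where Surface was also the list least often split. These classes are thus not read as particular to broad regions.

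The regions with the most peaks included 2 of the longest, on chromosomes 17 and 25, already described, with 10 peaks each over the 3 lists. The next had 9 peaks, on chromosome 8, and 3 regions tied with 8. They lay on chromosome 8 at positions 6353182 to 6357681, on chromosome 12 at 22243812 to 22252350, on chromosome 17 at 11922762 to 11925951 and on chromosome 23 at 19103834 to 19107317. On chromosome 12, Surface covered 6256 bp in 4 peaks, Pachon 5218 bp in 3 and Tinaja 8539 bp in 1, the whole region. On chromosome 8, all lists were broken, with 3773 bp in 2 peaks in Surface, 2845 bp in 4 in Pachon and 3088 bp in 3 in Tinaja. On chromosome 17, Surface covered 2663 bp in 2 peaks, Pachon 2648 bp in 3 and Tinaja 2085 bp in 3. On chromosome 23 the lengths were 3071 bp in 2 peaks, 2630 bp in 3 and 2702 bp in 3, in the same order of lists.

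Covered length, the summed width of a list's peaks in a region, was similar between forms for the set as a whole and ranged widely for single regions. The median was 2161 bp in Surface (range 214 to 23729 bp), 2016 bp in Pachon (229 to 22010 bp) and 2127 bp in Tinaja (268 to 22605 bp). The median log2 ratio was -0.07 for Pachon over Surface (binomial 95% interval -0.09 to -0.05), beside -0.07 over all shared regions. For Tinaja over Surface it was -0.0074 (interval -0.023 to 0.0029), beside -0.011. For Tinaja over Pachon it was 0.04 (interval 0.02 to 0.05), beside 0.04. These intervals cover variation over regions and counting error, not variation between fish or libraries. In 308 regions (18.2%) the 3 covered lengths lay within 10 percent of the lowest, beside 17.7% of all shared regions.

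A difference of at least 1.5-fold in covered length was used to count regions that departed between 2 lists. Pachon and Surface were that far apart in 519 members (30.6%), beside a background of 25.3% of all shared chromosomal regions. Tinaja and Surface were in 483 members (28.5%), beside 23.2%. Tinaja and Pachon were in 316 members (18.7%), beside 16.5%. The members were chosen by the length of the same peaks, and a long peak in 1 list is enough to enter the set, so nothing is read from these shares against their background.

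By direction, Surface covered at least 1.5 times Pachon in 305 members (18.0%, background 16.4%), and Pachon at least 1.5 times Surface in 214 (12.6%, background 8.95%). Tinaja covered at least 1.5 times Surface in 249 members (14.7%, background 11.2%), and Surface at least 1.5 times Tinaja in 234 (13.8%, background 12.0%). The comparisons of both caves share the Surface list. Tinaja covered at least 1.5 times Pachon in 213 members (12.6%, background 11.1%), and Pachon at least 1.5 times Tinaja in 103 (6.08%, background 5.33%). Wider coverage in Tinaja than in Pachon was thus the more frequent direction between the caves, in the members as in all shared regions. The whole lists differed too, with 37.2 Mb under chromosomal peaks in Tinaja, 34.5 Mb in Surface and 31.5 Mb in Pachon.

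Counted by the form that stood apart from both others, Surface was the lower by at least 1.5-fold in 173 members (10.2%, background 6.26%), Pachon in 131 (7.73%, background 6.37%) and Tinaja in 71 (4.19%, background 2.91%). Surface was the higher by at least 1.5-fold in 140 members (8.26%, background 7.19%), Tinaja in 70 (4.13%, background 3.43%) and Pachon in 23 (1.36%, background 1.65%). Pachon was the form least often wide alone, in the members as in all shared regions. The covered lengths of the 1694 regions had a Spearman correlation of 0.64 between Tinaja and Pachon, 0.42 between Pachon and Surface and 0.37 between Tinaja and Surface. The points share their region and the length rule, which restricts the range, so these are descriptions without a test.

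**Figure D3:**
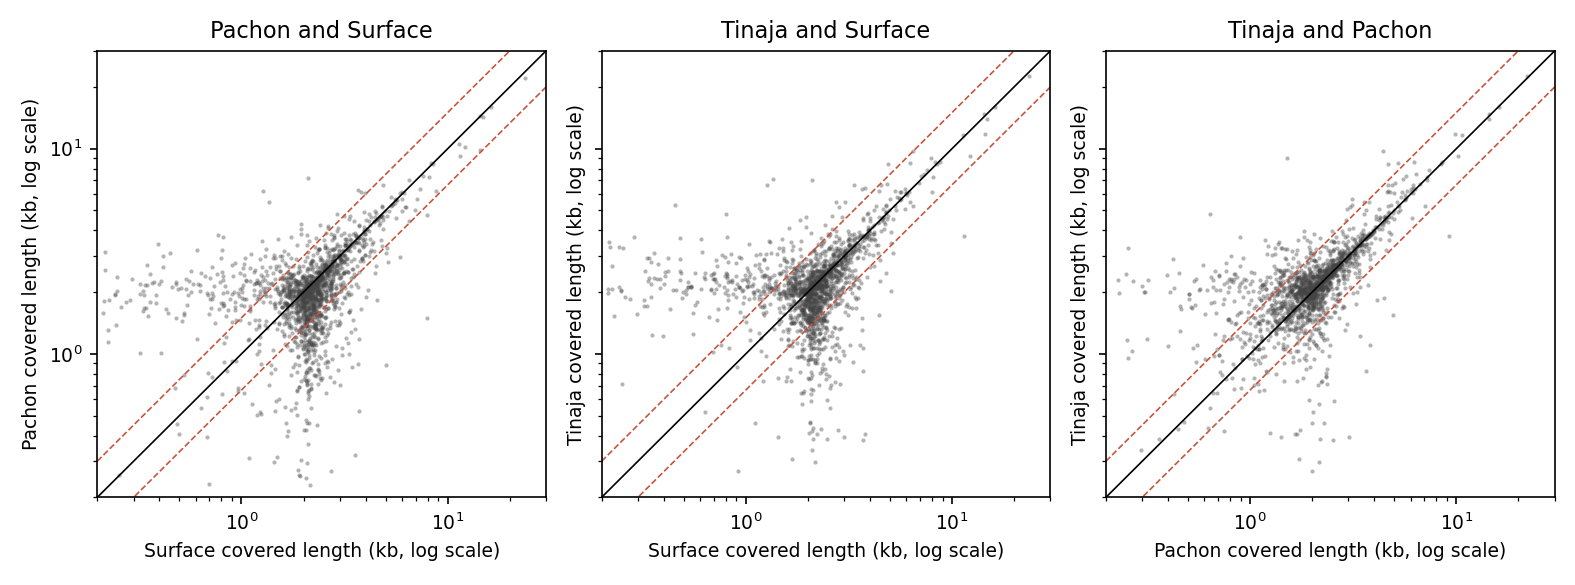
Covered length in kb (both axes log scale) of the 1694 broad regions for each pair of lists, one point per region; the solid line marks equal length and the dashed lines 1.5-fold. Points crowd around the solid line near 2 kb, with arms where 1 list is near 2 kb and the other far shorter; 519 points lie on or outside the dashed lines for Pachon and Surface, 483 for Tinaja and Surface and 316 for Tinaja and Pachon.

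Which list covered most differed between length classes. Surface covered the most in 44.5% of broad regions (753), Tinaja in 35.6% (603) and Pachon in 19.3% (327), with ties in 11. Over all shared regions the shares were close to these, at 44.0%, 34.1% and 21.1%, in the same order of lists. In regions of 1000 to under 2000 bp the shares were 50.2% for Surface and 30.8% for Tinaja. In the 405 regions of at least 3000 bp they were 37.5% for Surface and 41.5% for Tinaja, and in the 68 of at least 5000 bp 30.9% (21 regions) and 58.8% (40 regions). Length classes are cut by union length, which is built from the same peaks. A long peak of any list can both place a region in a class and make that list cover the most. The order of Surface and Tinaja from 3000 bp was the opposite of that in the whole set. It was also the opposite in shared regions under 500 bp, with 31.3% for Surface and 41.1% for Tinaja, so this order was not limited to long regions. The median log2 ratio of Tinaja over Surface was 0.03 (interval 0.00095 to 0.058) from 3000 bp and 0.05 (interval 0.01 to 0.14) from 5000 bp. Pachon covered the most in 20.5% of regions from 3000 bp and in 7 of 68 from 5000 bp. Because the same peaks set the classes, no trend of the forms with length is read from these shares, ratios or intervals.

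Coverage fell toward both edges of the regions in every list. A region ends at the outermost edge of any list, so a fall toward the edges is given by the merging. Over the interior, coverage was higher and varied little in Pachon and Tinaja. At the midpoint, 89.7% of the regions were covered in Surface, 82.9% in Pachon and 87.1% in Tinaja. In the first of 50 equal bins of the length, the shares were 50.1% in Surface, 43.7% in Pachon and 55.7% in Tinaja. Surface was thus above Tinaja in the middle and below it at the edge. In regions of 1000 to under 2000 bp Surface was the highest at both places, with 54.8% in the first bin against 47.3% in Tinaja and 36.8% in Pachon.

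**Figure D4:**
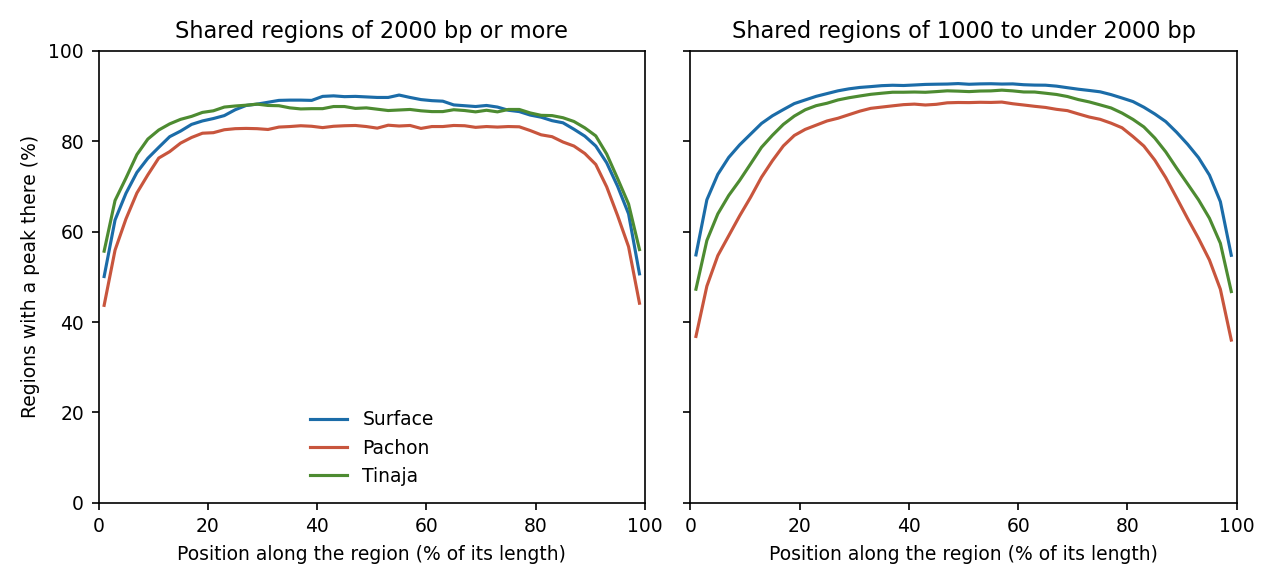
Percentage of regions with a peak of each list (vertical axis) along the region from its lower to its higher coordinate (horizontal axis, percent of its length, 50 bins), for broad regions at left and shared regions of 1000 to under 2000 bp at right. In broad regions the Surface line lies above the Tinaja line in the middle, 89.7% against 87.1%, and below it in the first bin, 50.1% against 55.7%.

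The edges themselves were set by all 3 lists. Of the outer edges, 37.0% were set by Tinaja alone, 35.2% by Surface alone and 24.1% by Pachon alone, and the rest were tied. In all shared regions the shares were 32.6%, 38.0% and 23.4%, with Surface and Tinaja in the opposite order. A single list set both edges in 261 regions for Tinaja (15.4%), 252 for Surface (14.9%) and 116 for Pachon (6.85%). Among all shared regions these shares were 11.8%, 15.9% and 6.01%. The outermost and innermost of the 3 edges lay a median of 204 bp apart. The median was 98 bp over all shared regions and 144 bp in those of 1000 to under 2000 bp. The 3 starts lay within 100 bp of each other, and the 3 ends too, in 211 regions (12.5%). This held for 1 edge only in 679 (40.1%) and for neither in 804 (47.5%). Over all shared regions these shares were 27.5%, 46.1% and 26.4%, and in those of 1000 to under 2000 bp 17.7%, 45.0% and 37.3%. Length is measured between the outermost edges, so edges that lie far apart help a region into the set. The contrast is thus in part given by the rule.

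The regions with the greatest departure of 1 form are given next, by form and direction. Relative to the geometric mean of the other forms, Surface was lowest on chromosome 1, positions 20956057 to 20959407, with 219 bp against 3323 bp in Tinaja and 3122 bp in Pachon. It followed on chromosome 15, positions 1282070 to 1285574, with 218 bp against 3505 bp in Tinaja and 2551 bp in Pachon. On chromosome 21, positions 11022034 to 11025338, Surface had 244 bp, Pachon 1937 bp and Tinaja 3305 bp. In each of these Surface kept 1 short peak and Tinaja a peak over most or all of the region; on chromosome 21 the Pachon length was broken into 4 peaks.

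Surface was highest on chromosome 24, positions 3702669 to 3704757, with 2089 bp against 339 bp in Tinaja and 295 bp in Pachon. On chromosome 18, positions 13960754 to 13962867, it had 2111 bp against 387 bp in Tinaja and 363 bp in Pachon. The next, on chromosome 1 at positions 20959696 to 20962054, had 2316 bp in Surface against 429 bp in Tinaja and 449 bp in Pachon. That region began 288 bp after the end of the one in which Surface was lowest. The neighbouring pair on chromosome 1 thus held the strongest departure of Surface in one direction and one of the strongest in the other.

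Pachon was lowest on chromosome 18, positions 12356381 to 12358686, with 229 bp against 2305 bp in Tinaja and 2160 bp in Surface. On chromosome 14, positions 29976445 to 29979712, it had 250 bp against 2462 bp in Tinaja and 2055 bp in Surface. On chromosome 6, positions 17366713 to 17370251, it had 321 bp against 3539 bp in Surface and 2296 bp in Tinaja. Where Pachon was highest, Tinaja and Surface were less alike. On chromosome 12, positions 10873539 to 10875907, Pachon covered 2369 bp, Surface 250 bp and Tinaja 717 bp. On chromosome 7, positions 32203723 to 32207139, Pachon covered 3417 bp, Surface 396 bp and Tinaja 1225 bp. On chromosome 4, positions 19363420 to 19365425, the order of the other lists was the reverse, with 2006 bp in Pachon, 922 bp in Surface and 268 bp in Tinaja.

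Tinaja was lowest on chromosome 6, positions 35032510 to 35036331, with 380 bp against 3698 bp in Surface and 2520 bp in Pachon, and no base pair there was covered in all 3 lists. On chromosome 5, positions 40468866 to 40471050, it had 296 bp against 2169 bp in Surface and 2158 bp in Pachon. On chromosome 7, positions 20566053 to 20569936, it had 408 bp against 3791 bp in Surface and 1660 bp in Pachon. The strongest excess of any form over the other lists among these regions was in Tinaja. On chromosome 6, positions 2016512 to 2019791, Tinaja covered 3280 bp against 254 bp in Surface and 257 bp in Pachon, 12.8 times their geometric mean. On chromosome 16, positions 20870566 to 20875363, it covered 4798 bp against 803 bp in Surface and 639 bp in Pachon. On chromosome 9, positions 13271032 to 13273503, it covered 2472 bp against 488 bp in Surface and 454 bp in Pachon.

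Broad regions lay on every chromosome, at 1.82 per Mb of span, the span being taken to the last region. The density ran from 1.02 per Mb on chromosome 21 to 2.39 per Mb on chromosome 12. As a share of shared regions it ran from 3.82% on chromosome 13 (57 of 1491, Wilson 95% interval 2.96 to 4.92) to 7.89% on chromosome 12 (75 of 950, interval 6.34 to 9.78). These were the chromosomes whose interval did not contain the overall 5.19%. Intervals cover counting error only, and neighbouring regions need not be independent. Chromosome 21 was low in shared regions of any length, with 23.4 per Mb against 35.1 per Mb overall.

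**Figure D5:**
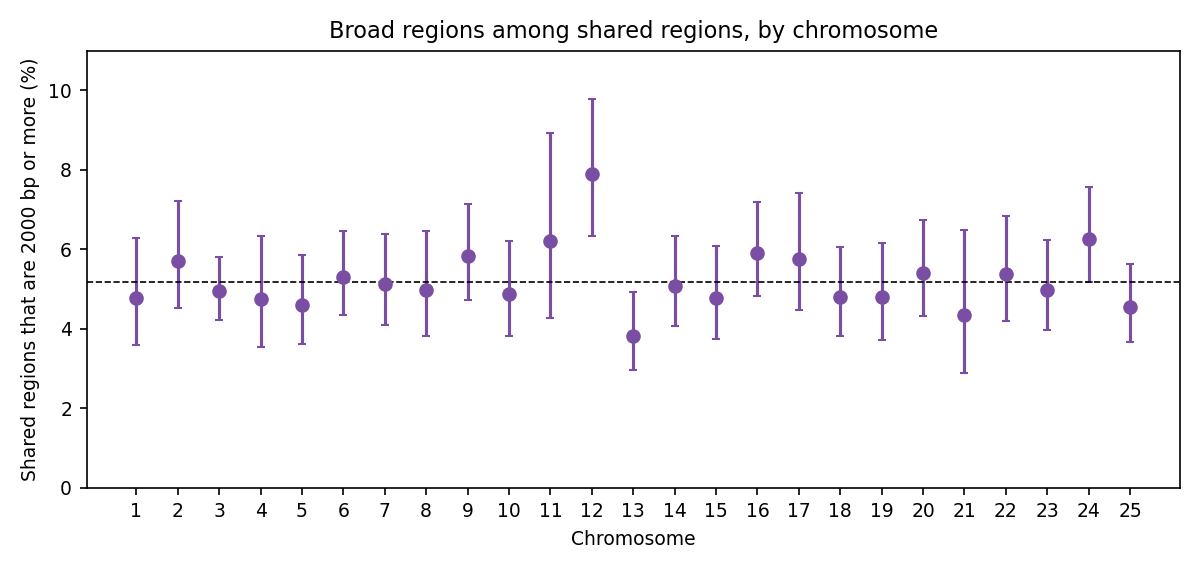
Percentage of the chromosomal regions held by all 3 lists that were 2000 bp or longer (vertical axis) on each of the 25 chromosomes; points are the shares, bars the Wilson 95% intervals and the dashed line the overall 5.19%. Chromosome 12 is the highest with 7.89% and chromosome 13 the lowest with 3.82%.

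Broad regions were spread along chromosomes with a few dense groups. The median distance to the next broad region was 308 kb, with quartiles of 98.5 and 747 kb. Of 944 windows of 1 Mb, 210 held none, and the median was 1. Another broad region lay within 10 kb of 188 members (11.1%), whereas 4.62% of the shorter shared regions had a broad region that near. For members of at least 3000 bp the share was 19.0%. No test of this difference was made.

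Neighbours of all classes together were counted too. Within 10 kb of its edges a broad region had a mean of 2.14 other regions of any class, beside 2.30 for shorter shared regions. Of these neighbours, 47.6% were held by all 3 lists, 20.4% by 2 and 32.0% by 1, beside 50.1%, 19.0% and 30.9% for shorter shared regions. Broad regions within 2 Mb of a chromosome end made up 12.7%, against 10.6% of the shorter ones and 10.7% of the span. Within 1 Mb the shares were 5.96%, 5.19% and 5.37%, and within 5 Mb 27.7%, 25.7% and 26.9%, in the same order.

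The group with the greatest broad length lay on chromosome 3 from 53623174 to 53672928. In 49.8 kb it held 5 regions of 5199 to 16202 bp that filled 90.4% of the span, among them 2 of the 10 longest. Peaks covered 43867 bp of it in Surface, 43336 bp in Tinaja and 39894 bp in Pachon. On chromosome 17 from 27189150 to 27224649, 4 regions filled 91.7% of 35.5 kb, with 32540 bp covered in Surface, 19140 bp in Tinaja and 26842 bp in Pachon. A Surface peak covered each of the 4 from end to end, and Tinaja left the most uncovered. On chromosome 14 from 38826261 to 38842087, 3 regions had 10166 bp in Surface, 3809 bp in Tinaja and 10826 bp in Pachon. These 3 groups, linked by gaps of at most 10 kb, were singled out after their values were seen.

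Within 50 kb, the most broad regions were found on chromosome 2 from 5084602 to 5133617, with 6. They were 2133 to 4898 bp long, and their peaks summed to 18430 bp in Surface, 19211 bp in Tinaja and 18087 bp in Pachon. The tightest groups of 5 lay on chromosome 6 from 25569236 to 25597580 and on chromosome 5 from 5132244 to 5162585. The group on chromosome 6 was widest in Surface, with 19876 bp against 16127 bp in Tinaja and 14079 bp in Pachon. That on chromosome 5 was widest in Tinaja, with 16902 bp against 14889 bp in Surface and 15130 bp in Pachon. The forms thus differed in opposite ways between these groups and little in the group on chromosome 2.

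The 1 Mb windows with the most broad regions lay on chromosomes 22 and 24. On chromosome 22 from 10000001 to 11000000, 10 of 30 shared regions were broad, and they ran from 2008 to 14403 bp. One of them, from 10608879 to 10613991, was covered over 5033 bp in Surface, 2030 bp in Tinaja and 880 bp in Pachon. On chromosome 24, 10 of 50 shared regions were broad from 26000001 to 27000000 and 9 of 59 from 28000001 to 29000000. In the windows of chromosome 24 no region exceeded 3814 bp, whereas the window of chromosome 22 held a region of 14403 bp.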

How the data were processed

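ATAC-seq peaks of liver from Surface, Pachon and Tinaja fish were analysed. The deposited lists give peak starts and ends and a score that is 0 for every peak. Per the submitters' processing notes, the tools were MACS2, Bowtie2, SAMtools and bcl2fastq 2.20. How they were set, what was filtered, the genome build and whether replicates were pooled is not stated there. The width of a called peak can depend on sequencing depth, and covered lengths can depend on it in turn, which was not tested. The depth is unknown, so no interval reflects it. Union regions were formed by joining peaks with at least 1 bp of overlap or with touching ends, in Python 3.11.15, numpy 2.4.6 and pandas 2.3.3. Starts are written 1-based. Per region, peaks, covered length and base pairs under 1, 2 or 3 lists were counted. Intervals are Wilson (scipy 1.17.1) for shares and order-statistic for medians. With 1 list per form no test was made; other thresholds, merging rules and list subsets were tried as alternatives. Merging and depth counting were tested on simulated data. The regions named are the 10 longest, the 5 with the greatest stretch in all 3 lists, the 5 with most peaks, the 3 lowest and 3 highest per form, the 3 densest 1 Mb windows and 50 kb groups, and those at the threshold. The members and these rules were chosen with earlier results of these data known. The planned gene and sequence measures were not run, as no genome or annotation of the build was used.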

Additional observations from a re-analysis of the deposited data

Results flagged for a closer look

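In 18 of 1694 broad regions (1.06%, background 0.371% of all shared chromosomal regions) the caves departed from Surface by at least 1.5-fold in covered length in opposite directions, and 2 of these are among the regions named. On chromosome 4 from 19363420, Pachon covered 2.18 times the Surface length and Tinaja 0.291 times. On chromosome 6 from 46461063, one of the regions just inside the length threshold, Pachon covered 0.410 times the Surface length (508 against 1240 bp) and Tinaja 1.58 times (1961 bp). The members were chosen by the length of the same peaks, so nothing is read from the share of 1.06% against its background. With 1 list per form these differences were not tested.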

How the results depend on the processing

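No paired analysis was possible because each form has 1 peak list and no result comes from a test. The number of regions was 3926 with a threshold of 1500 bp, 405 with 3000 bp, 468 when the stretch in all 3 lists had to reach 2000 bp, 567 when each list had to cover 2000 bp, 996 with 50% reciprocal overlap and 3180 with unplaced scaffolds. Leaving out a list gave 1318 to 1576. For those settings in the same order, except 3000 bp, the share with 1 peak of each list was 66.0%, 88.0%, 76.0%, 80.5% and 62.6%. It was 57.2% with peaks within 200 bp merged and 70.7% to 78.8% without a list. The median percentage open in all 3 lists was 89.4% for the stretch rule, 86.8% for coverage by each list, 79.6% for reciprocal overlap and 75.5% to 85.8% without a list, when only 2 lists need coincide. The median log2 ratio of Pachon over Surface was -0.10 with 1500 bp, -0.0089 with 3000 bp, -0.0081 for the stretch rule, -0.010 for coverage by each list, -0.028 for reciprocal overlap, -0.038 with scaffolds and -0.0884 without Tinaja. That of Tinaja over Surface was -0.031 with 1500 bp, 0.026 with 3000 bp, 0.0097 for the stretch rule, 0.0080 for coverage by each list, 0.0044 for reciprocal overlap, 0.0030 with scaffolds and -0.011 without Pachon. Its sign thus depended on the setting. That of Tinaja over Pachon was above 0 in every setting, with 0.011 for the stretch rule, 0.014 for coverage by each list, 0.016 for reciprocal overlap and 0.0400 without Surface. Some settings by their construction keep only regions long in every list. The cause of the changes was not tested in any setting. Equal numbers of widest peaks changed the number of regions to 1687 and moved none of the other 5 results beyond its interval. Without read counts or replicate lists, the data cannot separate a wide open region from a deeply sequenced one.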
